A study of Mus musculus with 74 samples.

Results

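Zfp661 is a mouse KRAB zinc finger protein (KRAB-ZFP), and its binding sites were mapped by ChIP-seq in F9 EC cells, a mouse embryonal carcinoma line. All rows of the deposited peak table that carry its name were taken, which gave 1065 peaks of 53255 in the table. Zfp661 carried a triple HA tag at its N terminus and was overexpressed from a stably integrated transposon vector in a pool of drug-resistant clones, so its level was not that of the endogenous protein. It was compared with 29 other HA-tagged KRAB-ZFPs overexpressed in F9 EC cells and called against the same HA control, which together had 11618 peaks. Of these 29, 6 had the tag at the N terminus like Zfp661 and 23 at the C terminus. F9 EC cells are the background of all 30 samples, precipitated with an HA antibody and called against F9 input and a control ChIP with the HA antibody. Each KRAB-ZFP was assayed in 1 sample, so no value has a replicate error, and the protein and its library cannot be told apart. The table holds peaks and no expression values, so the identity of the cells was not checked.

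KRAB-ZFPs bind DNA through an array of C2H2 zinc fingers, each of which contacts a few bases, and most recruit the corepressor KAP1 (Trim28) through the KRAB domain, which leads to H3K9me3. Many bind retrotransposons, and some bind unique sites. CTCF, a zinc finger protein without a KRAB domain, binds insulators and, with cohesin, the anchors of chromatin loops. Its best known target genes include the clustered protocadherins, a set of neuronal adhesion genes.

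A DNA motif was sought in the Zfp661 peaks on odd-numbered chromosomes, and the share of peaks that hold it was then measured on the even-numbered chromosomes, X and Y, which had not been used to find it. The first motif (motif 1) came from 560 peaks and the second (motif 2) from the 320 of them whose best motif 1 score did not exceed a limit set on windows flanking the peaks, which was stricter than the threshold given below. The letters below are the bases with a share of at least 60% at a position, and N stands for any base. They are shown because 1 or both of these motifs lay in most Zfp661 peaks.

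Motif 1: CNNCAGCGCCNCCTNNTG
Motif 2: NACANNGCTGCAN

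Motif 1 was 18 bp long, and its most constant bases were a C at 97.6% and a C at 96.7% in its middle and a final G at 96.2%. Motif 2 was 13 bp long, with C at 98.8% and 99.3% at its most constant positions. A peak window, 200 bp around the summit, was said to hold a motif where its best score on either strand was above the score that 1.0% of all 200 bp windows of the genome exceed. Motif 1 was found in 192 of 505 peaks on the chromosomes not used to find it, or 38.0% (95% Wilson interval 33.9 to 42.3%). Motif 2 was found in the same number, 192 of 505, with the same interval. The intervals cover the counting of peaks only. On the chromosomes used to find the motifs the shares were 44.8% and 34.3%.

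The 6 sites below are the single motif 1 matches in the peaks of highest fold that held motif 1 alone. The motif is in capitals with 6 bases on each side, and each site is named by the gene it lies in or the gene with the nearest transcript start. Coordinates are in mm9, and the sequence is given on the strand of the motif.

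Ltbp4, chr7:28091359-28091388, minus strand: cccttaCCACAGCGCCCCCTGCCGtctaag
Trnp1, chr4:133050547-133050576, plus strand: gcagctCCACACTGCCCTCTGGTGgcacaa
C330046G13Rik, chr10:84021443-84021472, plus strand: ttggcaCAGTTGTTCCACCTGGTGgtcatt
Gm10030, chr9:110899912-110899941, minus strand: ttaggaCCAAAGCGCCCTCTAGAGgtatga
2310033P09Rik, chr11:59022798-59022827, plus strand: catgtcATACAGCACCACCGTGTGgacagc
Extl3, chr14:65688287-65688316, minus strand: gtactgGTACAGAGCCATCTGCTGgggctc

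The site in an intron of Ltbp4, which encodes a binding protein of latent TGF-beta, had a fold enrichment of 105.28 with 207 tags, the sequenced reads counted in the peak. The site in Trnp1, a nuclear protein of neural progenitors, had a fold of 96.5. The intronic site in Extl3, a glycosyltransferase of heparan sulfate synthesis, had a fold of 80.21. The sites near C330046G13Rik and Gm10030 were intergenic, with folds of 92.14 and 90.24, and the site in 2310033P09Rik had 85.22. The motif scores of these sites ran from 12.5 in 2310033P09Rik to 21.9 in Ltbp4, against a threshold of 12.09, so some of the strongest peaks held a match near the threshold.

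The second set below shows single motif 2 matches in the peaks of highest fold that held motif 2 alone and no tandem repeat, again with 6 bases on each side of the capitals.

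Isyna1, chr8:73120745-73120769, minus strand: attcacTACAGGGCTGCCCgggggc
Camta1, chr4:150475777-150475801, minus strand: tcctgcAACAAGGCTGTACcatcta
Veph1, chr3:66096341-66096365, minus strand: gggggtCACTGAGCTGCACtggggc
Zbtb7a, chr10:80609906-80609930, minus strand: tgaaatAACAAGGCTGTAAcaggta
Acy3, chr19:3989033-3989057, minus strand: aaaggcTACAGGACTGCACaagagc
Cacna1d, chr14:31242942-31242966, minus strand: ggccgcAACAAGACTGTACtgtttg

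The site in a coding exon of Isyna1, an inositol phosphate synthase, had a fold of 109.04. The other 5 lay in introns, with folds from 69.94 in Cacna1d, a voltage-gated calcium channel, to 86.48 in Camta1, a calmodulin-binding transcription activator. The Camta1 site was also the one that matched an oligo of the study. The oligo list of the study names an insert of 56 bases after Zfp661 and ORR1D2, an LTR retrotransposon of the MaLR type, and this insert aligned to the Camta1 window over all 56 bases with every base identical. The study used such inserts in luciferase repression assays, and the paper states that every sequence tested there was silenced. No other Zfp661 window aligned to the insert over at least 30 bases. It held a motif 2 match with a score of 17.3, above the threshold of 13.3, while its best motif 1 score was 8.9 and below the threshold of 12.1. It is printed below with the motif 2 match in capitals, which reads on the minus strand.

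Zfp661_ORR1D2: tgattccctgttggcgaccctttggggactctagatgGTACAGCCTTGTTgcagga

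Both motifs were centred on the summits. The midpoint of the best motif 1 match lay a median of 18 bp from the summit, and 92.6% of 443 matches lay within 50 bp. For motif 2 the median distance was 15.5 bp and 91.4% of 384 matches lay within 50 bp. The centre of the window was used to find the motifs in the peaks of odd-numbered chromosomes, so the position is in part set by the search. Windows 1 kb to either side of the summits held motif 1 in 1.97% and motif 2 in 2.02% of 2130 cases.

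**Figure D1:**
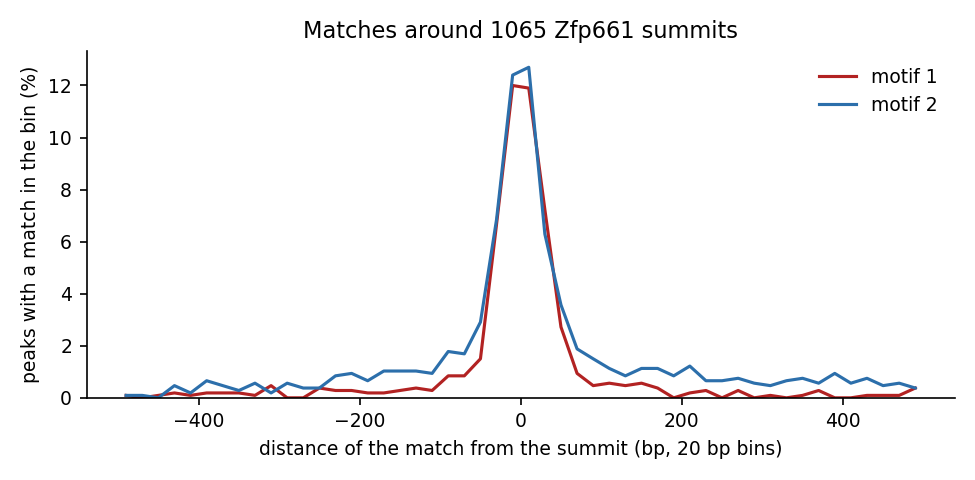
Share of the 1065 Zfp661 peaks (vertical axis, %) with a match of motif 1 (red) or motif 2 (blue) whose midpoint falls in each 20 bp bin of distance from the summit (horizontal axis, bp). Both lines peak at the summit and fall to a low level beyond about 50 bp, and 92.6% of best motif 1 matches lay within that distance.

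The 2 motifs marked largely separate sets of peaks. Motif 1 alone was found in 392 peaks, motif 2 alone in 333, both in 51 and neither in 289. On the even-numbered chromosomes and X, motif 2 was in 14.6% of 192 peaks with motif 1 and in 52.4% of 313 peaks without it. Peaks are not replicates, and motif 2 was sought where motif 1 was missing, so this is a description. At a looser threshold, which 5.0% of genome windows exceed, 92.2% of all peaks held at least 1 of the 2 motifs.

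The share of peaks with either motif was far above that of any other F9 sample with the HA control. On the same chromosomes the other 29 KRAB-ZFPs held motif 1 in 0 to 7.27% of their peaks, with a median of 1.39%, and the highest was Zfp493. They held motif 2 in 0 to 3.95%, with a median of 1.06%, and the highest was Zfp595. Zfp661 stood higher than all 29 for both motifs, which in a two-sided exact permutation test over the 30 samples gave p = 0.0333, the smallest these samples allow. After Benjamini-Hochberg adjustment over the 16 measures tested the p was 0.133, so neither passed 0.05. The test places 1 sample among samples of other proteins. Both motifs were found in Zfp661 peaks, so the direction was fixed and a first place was close to set in advance. The p-values of the motif shares therefore lend no support. With only the 6 other N-terminally tagged proteins the smallest p is 0.143, which cannot pass the threshold.

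The core consensus of the CTCF motif, taken from outside these peaks, was measured next. It is not a pattern apart from motif 1. On the opposite strand, all but its end base fits motif 1, from the G of 76.2% to the final G of 96.2%. Exact matches to the core consensus on either strand were present in 113 of 1065 Zfp661 windows, or 10.6% (95% Wilson interval 8.9 to 12.6%), and in 0.0934% of all 200 bp windows of the genome. In the 29 other KRAB-ZFPs the share ran from 0 to 2.14%, with a median of 0.181%, and Zfp273 was the highest. Zfp661 was above all 29 (two-sided exact permutation test over samples, p = 0.0333, adjusted p = 0.133). Motif 1 was present in 98 of the 113 peaks, and 98 of the 443 best motif 1 matches, or 22.1%, overlapped the core consensus on the opposite strand. Most peaks counted for the consensus were thus also counted for motif 1, which was found in Zfp661 peaks. The test of the consensus is therefore not separate from that of motif 1. Of the peaks with motif 2 alone, 4 of 333 held the consensus, and of those with neither motif 11 of 289. A match is a description of the sequence. No binding of CTCF was measured here.

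Among the peaks with the core consensus, the highest fold, 97.76, was at an intergenic window near Snord89, a small nucleolar RNA gene, which also held both motifs. Trnp1 followed at 96.5 and Extl3 at 80.21, and their sites are printed above. A pair of windows at transcript starts had a fold of 68.93 each. One lay 47 bp from a start of Slc35e4, a solute carrier, and the other 73 bp from a start of Dgkz, a diacylglycerol kinase. The median fold of the 113 peaks was 31.7, beside 29.6 over all Zfp661 peaks.

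**Figure D2:**
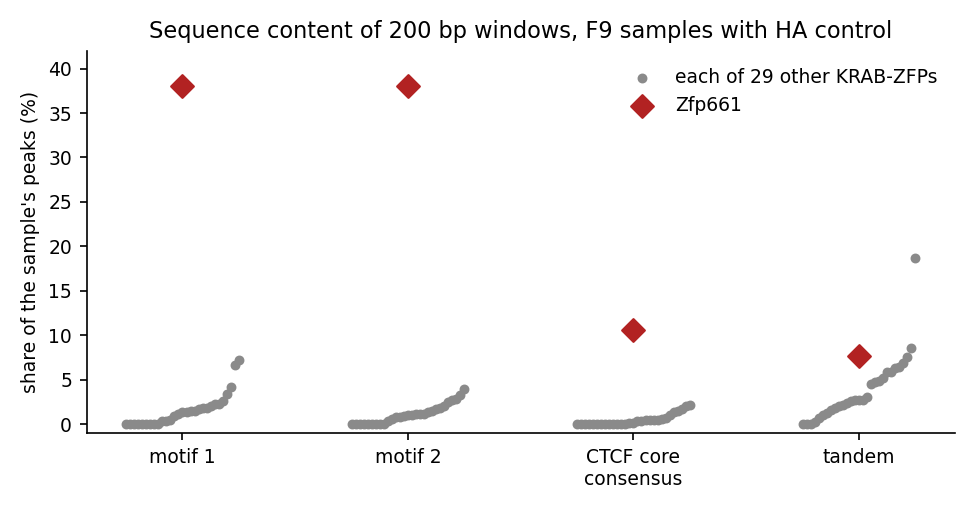
Share of a sample's peaks (vertical axis, %) with motif 1, motif 2, the CTCF core consensus or a tandem repeat, for Zfp661 (red diamond) and each of the 29 other KRAB-ZFPs in F9 EC cells with the HA control (grey points, in order of their value), with the 2 motifs counted on even-numbered chromosomes and X. Zfp661 lies above all others for both motifs at 38.0% and for the core consensus at 10.6%, and among them for tandem repeats at 7.7%.

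The fold enrichment of the 1065 peaks, the authors' ratio of tags at the summit to the local background, lay between 20.05 and 205.54, the median was 29.6, the first quartile 23.8 and the third 40.1. The lower end is set by the enrichment of 20 that the peak calling required, and 49 peaks stood at 20.05. In 631 peaks (59.2%) the fold was a whole multiple of 1.253 to within 0.02, and 20.05 is 16 such steps, so the folds of weak peaks are coarse. The number of tags per peak ran from 19 to 3258 with a median of 52, and the deposited false discovery rate was at most 1.23%. Among called peaks above the motif threshold, the motif score showed little relation to the fold. Across the 417 peaks with 1 motif 1 match and no tandem repeat, Pearson's r of score and log2 fold was 0.037, and across the 310 such peaks with motif 2 it was -0.063. These are descriptions across peaks of 1 library, with score and fold both cut at their lower end by the thresholds. A relation over a wider range was not tested. Motif 1 lay in 40.9% of the peaks of the lowest fold quartile and in 41.9% of the highest, and motif 2 in 32.7% and 37.9%.

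The 10 strongest peaks lay mostly in tandem repeats. Of the 10 peaks with the highest fold, 9 held motif 2, none held motif 1 and 9 lay in tandem repeats, in which a unit is repeated head to tail. A window was called tandem where at least 60% of its bases equalled the base 1 period further on, a measure chosen after the strongest peaks had been seen. The sequences below are the 120 bp around the summits of 4 of these peaks, on the plus strand of mm9, with matches of motif 2 on either strand in capitals. They are shown because 1 window holds several matches in a row.

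Acvrl1, chr15:100969857-100969976: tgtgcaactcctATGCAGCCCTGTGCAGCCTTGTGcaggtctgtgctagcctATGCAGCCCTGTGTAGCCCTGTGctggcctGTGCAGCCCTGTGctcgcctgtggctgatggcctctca
Nek7, chr1:140434950-140435069: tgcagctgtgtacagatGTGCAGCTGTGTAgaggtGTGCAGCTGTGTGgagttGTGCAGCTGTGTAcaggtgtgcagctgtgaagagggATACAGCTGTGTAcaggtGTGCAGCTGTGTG
Ntrk2, chr13:58841700-58841819: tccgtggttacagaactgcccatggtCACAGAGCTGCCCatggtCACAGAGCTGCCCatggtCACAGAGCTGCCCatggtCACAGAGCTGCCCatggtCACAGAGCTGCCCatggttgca
Mir137, chr3:117857949-117858068: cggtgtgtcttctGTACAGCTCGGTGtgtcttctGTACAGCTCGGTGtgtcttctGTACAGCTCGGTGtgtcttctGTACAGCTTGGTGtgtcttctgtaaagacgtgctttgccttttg

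The strongest peak of all lay in an intron of Acvrl1, a type I receptor of the TGF-beta family, 1.89 kb from a transcript start, with a fold of 205.54, 596 tags and 6 motif 2 matches in its window. It was the 1 peak of the 10 below the tandem threshold, with 51.5% of bases equal at a period of 10 bp. The intronic peak of Nek7, a mitotic kinase, had a fold of 184.23 with 10 matches and a period of 18 bp. Most of the unit there is the motif.

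An intergenic peak 66.2 kb from Ntrk2, the receptor of BDNF, had a fold of 174.21, and one 279.0 kb from Mir137, a microRNA of neurons, had 172.95. Both held 6 matches. A peak with a fold of 186.74 lay in an intron of Lman1, a cargo receptor of the endoplasmic reticulum, in a repeat with a period of 30 bp, and held neither motif. Other members of the 10 were an intergenic peak nearest to a copy of the small RNA gene 7SK with 170.45, and intronic peaks of Dcaf5, a ubiquitin ligase adaptor, with 164.18, of Mllt10, a partner of the methyltransferase Dot1l, with 163.11, and of 1300010F03Rik with 160.42. These repeats thus differ in period and in the bases between the motif 2 matches.

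The fold of the peaks was then set against the number of motif 2 matches. The median fold was 29.6 in 681 peaks without a motif 2 match, 28.8 in 317 with 1 match and 29.2 in 34 with 2. It was 82.7 in 33 peaks with 3 or more, of which 24 were tandem and 22 multi-copy. Among these 33 the median was 96.7 in the 24 tandem windows and 37.6 in the 9 others, so many matches and a tandem repeat mostly came together. A window was multi-copy where the median 24 bp word in it occurs at least 2 times in the genome. These are peaks of 1 library, described with no test. Reads that fit several places were placed at 1 of them pseudo-randomly, and how this and the repeats' copy number in F9 EC cells move the fold was not tested.

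**Figure D3:**
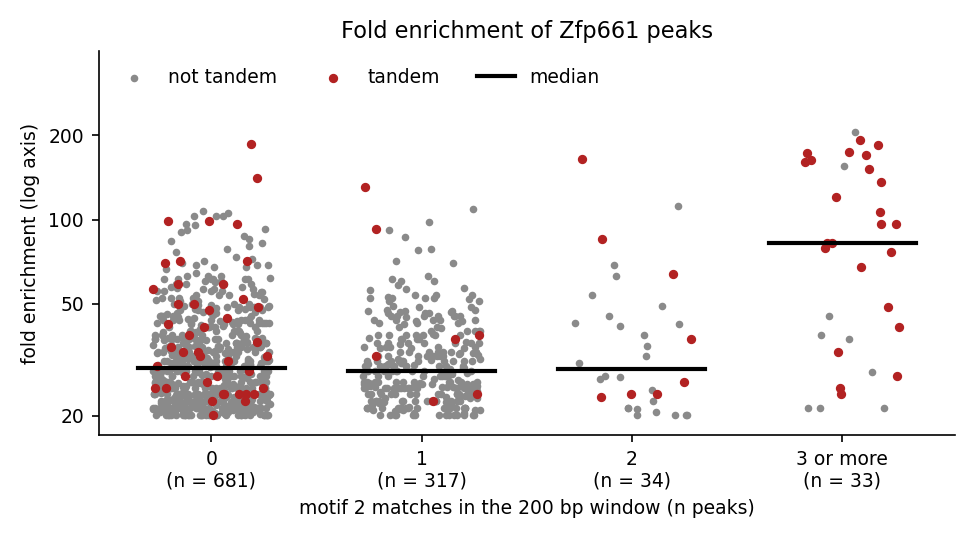
Fold enrichment (vertical log axis) of each of the 1065 Zfp661 peaks by the number of motif 2 matches in its 200 bp window (horizontal axis), with tandem windows in red, others in grey and the median of each group as a black line. The medians were 29.6, 28.8 and 29.2 for 0, 1 and 2 matches and 82.7 for 3 or more.

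In all, 82 Zfp661 windows (7.7%, 95% Wilson interval 6.25 to 9.46%) were tandem, beside 0.962% of genome windows. Of these, 39 held motif 2, 3 held motif 1 and 40 held neither. The tandem windows without a motif had a median fold of 34.5 and those with motif 2 a median of 79.0. Tandem repeats are not peculiar to Zfp661 peaks, since 2 of the 29 other KRAB-ZFPs had a higher share, Zfp738 with 18.8% and Zfp273 with 8.57%. With at least 70% of bases equal, 63 Zfp661 windows (5.92%) were tandem, and 0.465% of genome windows. Outside the tandem windows the median fold of the peaks was 28.8.

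Most Zfp661 peaks in multi-copy windows lay in tandem repeats. No repeat annotation was used, and a diverged repeat copy can pass as single: the Camta1 window, which matches the ORR1D2 insert, counted neither as multi-copy nor as alike to another peak. Multi-copy windows made up 8.73% of the peaks (93 of 1065), while the median of the 29 other KRAB-ZFPs was 13.8% and the range 4.73 to 81.2%, with Zfp808 the highest. Of the 93, 70 were tandem windows, and outside these 2.34% of the Zfp661 peaks were multi-copy. Neither this last share in the other samples nor the multi-copy share of genome windows was measured. A peak was alike in sequence to another peak of the same sample in 5.54% of cases, beside a median of 17.1% in the others, of which 27 were above Zfp661. Neither difference passed the test (two-sided exact permutation tests over samples, p = 0.467 and 0.4, adjusted p = 0.534 and 0.492).

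The largest family of alike peaks had 16 members, 11 of them with motif 2, and a median fold of 27.9. A second family had 5 members on chromosome X, all with motif 1, and a median fold of 45.1. The sites of 4 members of the first family and 3 of the second are printed to show that the bases around the capitals are also alike, with 10 bases on each side.

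First family, Il6st, chr13:113231081-113231113, plus strand: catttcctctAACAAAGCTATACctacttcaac
First family, Gm17731, chr3:80779542-80779574, plus strand: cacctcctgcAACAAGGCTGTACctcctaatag
First family, Usp46, chr5:74447081-74447113, minus strand: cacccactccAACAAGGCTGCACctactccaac
First family, Gm8894, chr14:55952888-55952920, minus strand: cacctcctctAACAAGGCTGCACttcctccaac
Second family, Gm15023, chrX:131723407-131723444, minus strand: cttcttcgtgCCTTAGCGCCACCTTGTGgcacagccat
Second family, AV320801, chrX:132017873-132017910, plus strand: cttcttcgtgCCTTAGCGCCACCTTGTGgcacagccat
Second family, Gm7903, chrX:131957160-131957197, plus strand: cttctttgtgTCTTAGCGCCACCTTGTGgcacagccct

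The first family was spread over several chromosomes, at folds from 28.83 near Gm8894 to 41.87 near Il6st in the members shown, and Usp46, a deubiquitinase, holds its site in an intron. A member not shown is the tandem peak nearest to 7SK, which had a fold of 170.45. The members of the second family shown had folds of 49.43, 47.62 and 36.35, and each lay about as far from a predicted gene, 11261 bp from Gm15023, 11241 bp from AV320801 and 11217 bp from Gm7903. A read from one such copy can fit the others, so the reads of the second family cannot be assigned to single copies with certainty.

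Zfp661 summits lay more often in and near genes than genome windows did. A transcript start was within 1 kb of 197 summits, or 18.5% (95% Wilson interval 16.3 to 20.9%), and of 4.15% of genome windows. Coding exons held 5.07% of the summits (54 of 1065) and 1.4% of windows, UTRs 4.04% and 1.25%, and introns 46.9% and 37.8%. Intergenic sequence held 42.3% of the summits and 58.8% of windows.

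The other KRAB-ZFPs also had summits in genes and near transcript starts, and no difference in position passed the adjusted test. The share in coding exons was above that of all 29, whose median was 1.48% and maximum 4.48% (two-sided exact permutation test over samples, p = 0.0333, adjusted p = 0.133). This adjusted p is lowered by the motif and core consensus shares, which had the same p. Those shares rest on motifs found in Zfp661 peaks or overlap them. With all samples held to a p under 1e-10 and an enrichment over 20, the exact permutation p of the coding exon share was 0.138. With the FLAG-tagged KRAB-ZFPs added to the comparison it was 0.104. The intergenic share was below that of all 29, with a median of 54.8%, yet other samples lay as far from the median (exact permutation p = 0.133, adjusted p = 0.291). The share near transcript starts was exceeded in 4 of the 29, up to 48.6% in Zfp456 (exact permutation p = 0.167, adjusted p = 0.291).

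The positions of the motif classes are described across peaks of 1 library, with no test. Peaks with motif 2 alone were in introns in 55.6% and intergenic in 35.4%, and those with motif 1 alone in 41.8% and 46.2%. A transcript start was within 1 kb of 20.7% of the peaks with motif 1 alone, 15.9% of those with motif 2 alone and 19.4% of those with neither. The median fold of the peaks with neither motif was 28.9, beside 29.9 for motif 1 alone and 28.8 for motif 2 alone. Of these 289 peaks without a motif, 45 were multi-copy.

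**Figure D4:**
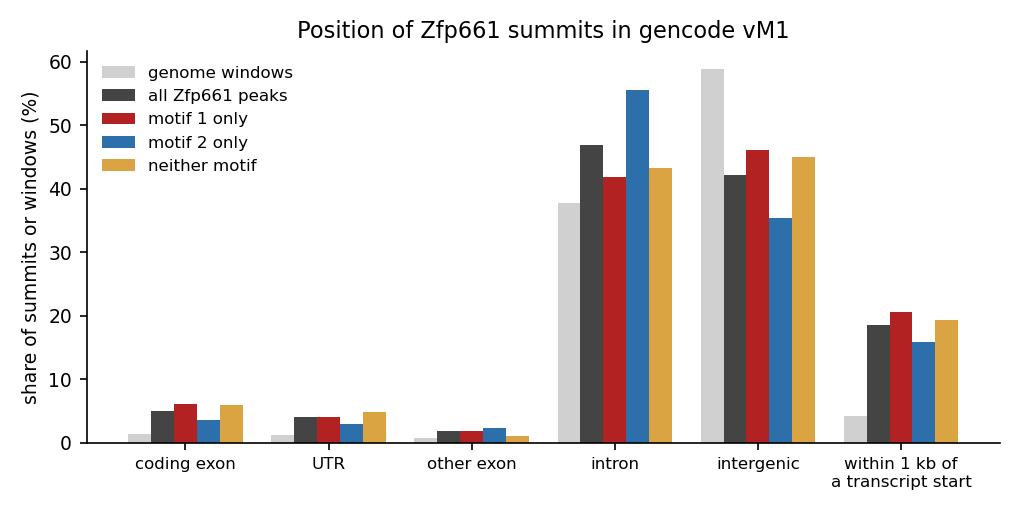
Share of summits or genome windows (vertical axis, %) in each class of gencode vM1 sequence and, at the right, within 1 kb of a transcript start, for all 200 bp genome windows (light grey), all 1065 Zfp661 peaks (dark grey) and the peaks with motif 1 alone (red), motif 2 alone (blue) or neither (yellow). Summits were intergenic in 42.3% of all peaks and 58.8% of genome windows, and the peaks with motif 2 alone have the highest share in introns, 55.6%.

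The base composition of the windows and the number and size of the peaks, as deposited, were within the range of the other samples. The mean GC content was 53.4%, beside a median of 46.8% in the others, and the ratio of observed to expected CpG was 0.312 beside 0.191 (exact permutation p = 0.2 for both, adjusted p = 0.291). The number of peaks, 1065, was exceeded by 4 of the 29, whose median was 176, and the median called width of 432 bp by 3 (exact permutation p = 0.167 and 0.133, adjusted p = 0.291 for both). The 4 with more peaks were all called at a looser p of 1e-05 and an enrichment of 10. With all samples held to a p under 1e-10 and an enrichment over 20, the number for Zfp661 lay farthest from the median of the others, 134 (exact permutation p = 0.0345, the smallest then possible, unadjusted). Of the 29, 18 were called with the same thresholds as Zfp661. The median fold was exceeded in 7 (exact permutation p = 0.6, adjusted p = 0.6). The difference in the share in introns did not pass the test (exact permutation p = 0.533, adjusted p = 0.569).

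Zfp661 loci were mostly its own. Only 17 of its windows, 1.6% (95% Wilson interval 0.999 to 2.54%), overlapped a window of another F9 sample with the HA control by at least 25%. The median of the other samples was 26.7% (exact permutation p = 0.3, adjusted p = 0.4). The share was lower in 2 of them, AW146154 with 0.629% and Zfp599 with 0.861%, both tagged at the N terminus like Zfp661. Rex2, Zfp600, Gm13139 and Zkscan17, also N-terminally tagged, had 9.575 to 33.7%. Among the 7 N-terminally tagged proteins alone, where there are fewer samples to share with, the share was 0.188% for Zfp661 and a median of 0.386% for the others (exact permutation p = 1.0). Over all 66 other KRAB-ZFPs in the table, with other tags, controls and cells included, 60 loci were shared and 1005 were not, and no locus was shared with more than 4 others. The most loci were shared with Gm13152, FLAG-tagged in F9 EC cells, at 21, or 1.97% of the Zfp661 loci and 0.405% of those of Gm13152. Gm13154 shared 8, Zfp738 shared 5, and Gm14419 and Zfp712 shared 3 each. Of the 21 shared with Gm13152, 11 lay within 1 kb of a transcript start.

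Summits close to each other were few, with 3.85% of peaks within 10 kb of another Zfp661 summit and a median of 0.985% in the others (exact permutation p = 0.133, adjusted p = 0.291). The clearest group of them lay in the clustered protocadherins. Of the 22367 protein-coding genes annotated, 979 (4.38%) had a Zfp661 summit in the gene or within 10 kb, and only 7 had 3 or more. The gene Gm20388, a record of 4430.0 kb, had 7 summits. Pcdhgc5, a gene record of 168.0 kb, had 6, and Wdfy3, a scaffold protein of selective autophagy in a record of 237.0 kb, had 5. Cux2, a homeobox gene of upper-layer neurons, Rap1gap2, a GTPase activator of Rap1, and Arid5b, a chromatin regulator, had 3 each. Fgfr2, a fibroblast growth factor receptor, also had 3, in a record of 3010.0 kb.

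The clustered protocadherin genes lie in 3 neighbouring groups named alpha, beta and gamma, and give each neuron a set of surface isoforms. In the annotation used, the whole gamma group is recorded under the symbol Pcdhgc5, so these 6 summits, 5 in the record and 1 upstream of it, belong to the gamma group and not to this isoform alone. No summit lay in the alpha group, which spans 257.4 kb, or the beta group, which spans 256.4 kb. The gamma group held 5 summits in 167.5 kb, or 29.8 per Mb, where Zfp661 had 0.416 per Mb over the genome. Their folds were 42.31, 72.4, 82.72, 28.83 and 36.9 in order along the group. The strongest of them, with 142 tags, lay 4.19 kb from a transcript start, and the next, with 132 tags, 62 bp from one. The summits with folds of 28.83 and 36.9 lay 60 and 333 bp from transcript starts.

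A summit with a fold of 22.56 lay 66 bp from the annotated start of Pcdhgc5, and another with 20.05 lay farther upstream, which gave 7 summits over the 912.0 kb from the first alpha to the last gamma gene. Of the 29 other KRAB-ZFPs, 3 had a summit there, with 1 each. These were AW146154 with 1 of its 159 peaks, Zfp599 with 1 of 697 and Gm13235 with 1 of 1791, beside 7 of 1065 for Zfp661. The 29 had a median of 176 peaks, so the counts are not on the same scale. The 2 gamma summits with the highest folds held neither motif, with best motif 1 scores of 7.2 and 8.1 below the threshold of 12.09, while motif 1 lay in the summits with folds of 22.56, 28.83 and 36.9. None held an exact match to the CTCF core consensus. Over all peaks only 22.1% of motif 1 matches overlapped such an exact match, so its absence at these few summits says little. The region was described after its summits had been seen, with no test.

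**Figure D5:**
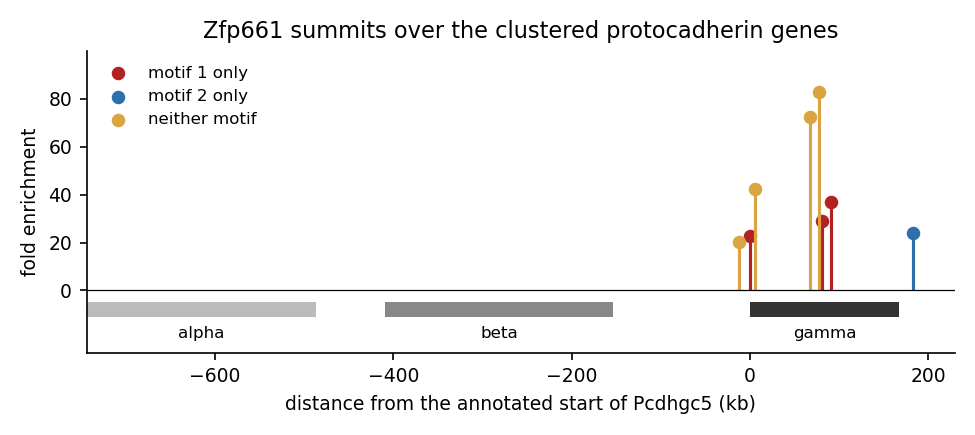
Fold enrichment (vertical axis) of the 8 Zfp661 summits over and within 50 kb of the clustered protocadherin genes, by distance from the annotated start of Pcdhgc5 (horizontal axis, kb), coloured by motif class, with bars below the axis for the span of the alpha, beta and gamma groups. All lie in or beside the gamma group, and the 2 highest, 72.4 and 82.72, held neither motif.

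In the annotation the gamma group counts as 1 record, beside 2 for alpha and 21 for beta. A count of records, unlike one of summits, thus cannot show how many gamma genes had a summit. By such a count the clustered protocadherins had 1 of 24 records (4.17%) with a summit within reach, beside 4.38% of all protein-coding genes. The other lists of adhesion genes were near the same share. Of 12 other protocadherins, 1 had a summit within reach, Pcdh10, with a fold of 27.57. Of 23 other cadherins it was Cdh4 (R-cadherin) with 40.11, and of 30 records of synaptic adhesion genes it was Nrxn2, a presynaptic neurexin, with 2 summits of up to 28.83. The genes of these lists are long, with medians of 74.8, 139.0 and 104.0 kb beside 15.4 kb over all protein-coding genes.

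Of the genes for CTCF and cohesin, 3 of 17 (17.6%) had a summit, at a median gene length of 46.3 kb. They were Pds5b with a fold of 24.52 and Pds5a with 23.57, which regulate the release of cohesin, and Nipbl, its loader, with 21.09. All of these folds were below the median of the Zfp661 peaks, 29.6. Of 21 pluripotency genes 3 (14.3%) had one, namely Prdm14, a repressor of differentiation genes in germ and ES cells, with 38.85, Klf5 with 21.71 and the nuclear receptor gene Esrrb with 20.65. Of 34 imprinted genes 2 (5.88%) did, Peg3, a zinc finger gene expressed from the paternal allele, with 33.84 and Mest with 20.05. With so few genes these shares are counts only.

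The lists of repressor genes and of clustered gene families were near or below the background within 10 kb. Of 368 genes named Zfp, 16 (4.35%) had a summit within reach, and these were 13 summits. The highest, with a fold of 102.77, lay within reach of both Zfp2 and Zfp354b, followed by Zfp335 with 46.62, Zfp442 with 42.57, Zfp280b with 39.37, Zfp362 with 31.33, Zfp523 with 28.86 and Zfp758 with 28.83. The gene of Zfp661 itself, on chromosome 2, had its nearest summit 4.04 kb from the gene. None of 21 records of the KAP1 silencing machinery, none of 40 Hox genes and none of 320 vomeronasal receptor genes had a summit within 10 kb. Of 1087 olfactory receptor genes 3 (0.276%) did, Olfr54 with a fold of 48.88, Olfr374 with 21.31 and Olfr51 with 20.05. These receptor genes are short, with a median of 0.963 kb. Within 50 kb, where 10.2% of all protein-coding genes had a summit, the KAP1 silencing genes turned to above the background with 4 of 21, while the imprinted genes with 3 of 34 (8.82%) and the other protocadherins with 1 of 12 (8.33%) turned to below it.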

How the data were processed

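The authors, as their labels and methods state, mapped reads to mm9 with Bowtie, placed ambiguous reads pseudo-randomly, and called peaks with MACS 1.4.2 at a p under 1e-10 and an enrichment over 20, keeping those called against both input and the HA control and setting each to 200 bp. The authors deposited, per peak, the tag count (raw), a score derived from the p-value, the fold enrichment (a ratio) and the false discovery rate as a percent. Tags inside Zfp661 peaks summed to 82026, and to 1681 to 183824 in the others. These are not library depths, which are unknown here. Of the table's names, 1 with 244 rows matched no label and was not used, and 1 labelled HA sample matched no name.

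Sequence came from NCBIM37 (mm9), genes from gencode vM1, with Python 3.11.15, numpy 2.4.6 and scipy 1.17.1. Motifs were found from the most enriched 8 bp word by expectation maximisation in the central 100 bp. Alike windows had a BLAST 2.17.0 alignment of at least 50 bp and 50 bits. Classes were those at the summit, with coding exon before UTR, other exon and intron. The place of Zfp661 among samples was tested by an exact permutation test with Benjamini-Hochberg adjustment over 16 measures, of which the motif 2 share was added after the data were seen. The methods were tested on simulated data.

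Named are the 10 peaks of highest fold (1 is not reported here), genes with at least 3 summits, up to 8 genes per list, and the 5 KRAB-ZFPs sharing most loci. Other peaks, including all those whose sites are printed, were picked with their values in view. The members and gene lists were chosen with earlier results of these data known.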

Additional observations from a re-analysis of the deposited data

How the results depend on the processing

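Across 17 results and 67 alternatives, 56 kept their direction and their side of an unadjusted p of 0.05 (no adjusted p was under it), or stayed within 1.5 times. With all samples held to a p under 1e-10 and an enrichment over 20, the 1065 peaks of Zfp661 gave an exact permutation p of 0.0345, and with a score over 200 the 935 that remained gave the same p. The share in coding exons, 5.07%, was no longer under an unadjusted p of 0.05 with those thresholds, with FLAG-tagged KRAB-ZFPs added, and with N-terminally tagged proteins only. In the last comparison, which cannot go below p = 0.143, the motif 1 and motif 2 shares of 38.0% and the CTCF core share of 10.6% were also no longer under it, and the median fold of 29.61 lay below the others' 33.1 in place of above. Genes with a summit numbered 556 within gene bodies and 2284 within 50 kb. At a threshold that 0.1% of genome windows exceed, motif 1 lay in 21.4% and motif 2 in 13.5% of peaks. No paired analysis was possible because each KRAB-ZFP has 1 sample, which also prevented leaving out a replicate. The tag counts limit weak peaks, and a missing peak does not show missing binding.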

Other observations

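Zfp661 peaks were unevenly spread over the chromosomes. Chromosome X held 20 of them, 1.88% of the peaks and 6.33% of the assembled bases searched, or 0.123 per Mb beside 0.416 per Mb over the genome. The highest densities were 0.619 per Mb on chromosome 19 and 0.606 per Mb on chromosome 11. Of the 20 peaks on X, 5 were the alike copies with motif 1. No test was made of these values. They were not compared with those of the other samples, and the copy number of the chromosomes in F9 EC cells was not measured.

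The widest peak, called over 5483 bp with 3258 tags, lay 54.8 kb from Foxn3, a forkhead gene, with a fold of 119.89, a repeat period of 24 bp and 6 motif 2 matches in the 200 bp window. The next, of 2494 bp, lay in an intron of Matn3, a cartilage matrix gene, where every base of the window equalled the base 38 bp further on. Its fold was 76.45 and its window held 4 motif 2 matches.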
